A study of Mus musculus with 4 samples.

Results

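Type 2 conventional dendritic cells (cDC2) were followed through 9 of their marker and factor genes in splenic dendritic cells (DC) of mice treated with TCDD or solvent. The genes were Sirpa, Irf4, Cd4, Clec4a4, Esam, Cx3cr1, Mgl2, Cd209a and Clec12a, and every array feature annotated to 1 of these symbols was taken. On this Affymetrix array a feature is a probe set, a group of short probes against 1 transcript region whose signals are combined into 1 value. The platform's annotation gave 12 probe sets for 7 of the 9 genes, of 22626 probe sets and 12393 genes in all. Sirpa had 3 probe sets, Irf4, Cd4 and Cx3cr1 had 2 each, and Esam, Mgl2 and Cd209a had 1 each. No probe set is annotated to Clec4a4 or Clec12a, so those 2 genes were not analysed here.

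All animals were female C57BL/6 mice aged 8 to 12 weeks with no genetic alteration named in the labels. The treated group received 10 µg/kg TCDD (2,3,7,8-tetrachlorodibenzo-p-dioxin, an activator of the aryl hydrocarbon receptor, AhR) in corn oil into the peritoneum, and the control group received DMSO in corn oil. After 24 h the spleens of 3 mice per group were pooled, and DC were isolated by density centrifugation followed by magnetic sorting (purity above 90% by the labels). Each group has 2 arrays, numbered as biological replicates 1 and 2, and the sources used here do not say whether each array had a pool of its own. The p-values below measure the spread between these arrays only.

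Conventional DC of the spleen fall into cDC1, which are specialised in cross-presenting antigen to CD8 T cells, and cDC2, which mainly present antigen on MHC class II to CD4 T cells. The cDC2 depend on the transcription factor IRF4 and carry the inhibitory receptor SIRPα. In the mouse spleen a large cDC2 fraction also carries CD4, the adhesion molecule ESAM and the inhibitory lectin encoded by Clec4a4, while another fraction is closer to monocytes and carries CX3CR1 and CLEC12A. The lectin genes Mgl2 and Cd209a mark cDC2 in several tissues. AhR is a ligand-activated transcription factor, and its DNA element contains the core GCGTG.

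The deposited values are RMA values by the submitters' notes, on the log2 scale, where a difference of 1 is 2-fold. RMA corrects for background and quantile-normalizes the probe signals. The 4 arrays still differed in distribution, since a further quantile normalization moved the TCDD minus DMSO difference of Sirpa 1416985_at from -1.05 to -0.70. The array medians were 5.9 to 6.0. A probe set is called dim here when its mean over the 4 arrays lies under the 40th percentile of all probe sets, a log2 value of 5.525. Genes of DC in general were bright: Itgax (CD11c) lay between 9.1 and 10.1, Flt3 between 8.8 and 9.6, and the brightest probe set of H2-Aa between 12.9 and 13.3. Itgax was lower in TCDD without overlap at -0.60, as were 24.1% of probe sets above the dim threshold, and overlapped at -0.20 under quantile normalization. The other H2-Aa probe set read 7.6 on TCDD replicate 1 against 10.8 to 11.9 on the other arrays. The only probe set of Itgam (CD11b), a defining cDC2 surface marker, lay at 4.4 on all 4 arrays and was dim. TCDD replicate 1 stood apart in its controls and in some neutrophil genes. The 3′ end of its Gapdh lay 3.6 above the middle against 1.5 to 2.1 on the other arrays. Of 11 measured neutrophil markers 10 were above the dim threshold. The log2 of their mean unlogged signal, in which bright genes weigh most, was 8.24 in TCDD replicate 1 against 6.36 to 6.55 elsewhere. S100a8 read 10.3 there against 5.6 to 6.4, S100a9 9.6 against 5.3 to 6.4, and Ngp 8.8 against 6.7 to 7.2. Csf3r at 7.3 to 7.4, Elane at 6.5 to 6.6 and Mmp9 at 6.6 to 7.5 did not stand out there. Camp was higher on both TCDD arrays, with 6.9 and 6.5 against 5.6 and 5.1 in DMSO. Whether these features play a part in any cDC2 value was not tested. Many results that rest on TCDD replicate 1 are given with and without it, but not all.

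No cDC2 gene passed the test for a difference between TCDD and DMSO. With limma and Benjamini-Hochberg adjustment over all probe sets, 0 of the 12 member probe sets and 0 of 22626 probe sets (0%) were called at an adjusted p under 0.05. The values lie on steps of 0.1, which leaves 741 probe sets with no spread within either group. Such rounding weakened the test on simulated data, and how far it did so here was not tested. With 2 arrays per group, 0 calls does not show that the groups were alike. With limma's variance prior taken without those 741, an alternative added after the data were seen, 0 were again called (smallest adjusted p 0.275). The smallest adjusted p over all probe sets in the first fit, 0.349, belonged to the brightest Sirpa probe set among others. At an unadjusted p under 0.05 there were 2 member probe sets, 1 of Sirpa and 1 of Cx3cr1, beside 13.1% of all probe sets. Both TCDD arrays lay below both DMSO arrays in 1 of the 12 member probe sets, against 18.4% of all probe sets, and above both in 2 of the 12, against 19.0%. Neither share exceeded that of the array as a whole. Their median difference was -0.025 and that of all probe sets was 0.0. In 7 of the 12 the difference was within 0.2 of 0, a share of 58.3% beside 55.1% of all probe sets. In these sorted pools, fewer cells of a type and less RNA per cell cannot be told apart.

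**Figure D1:**
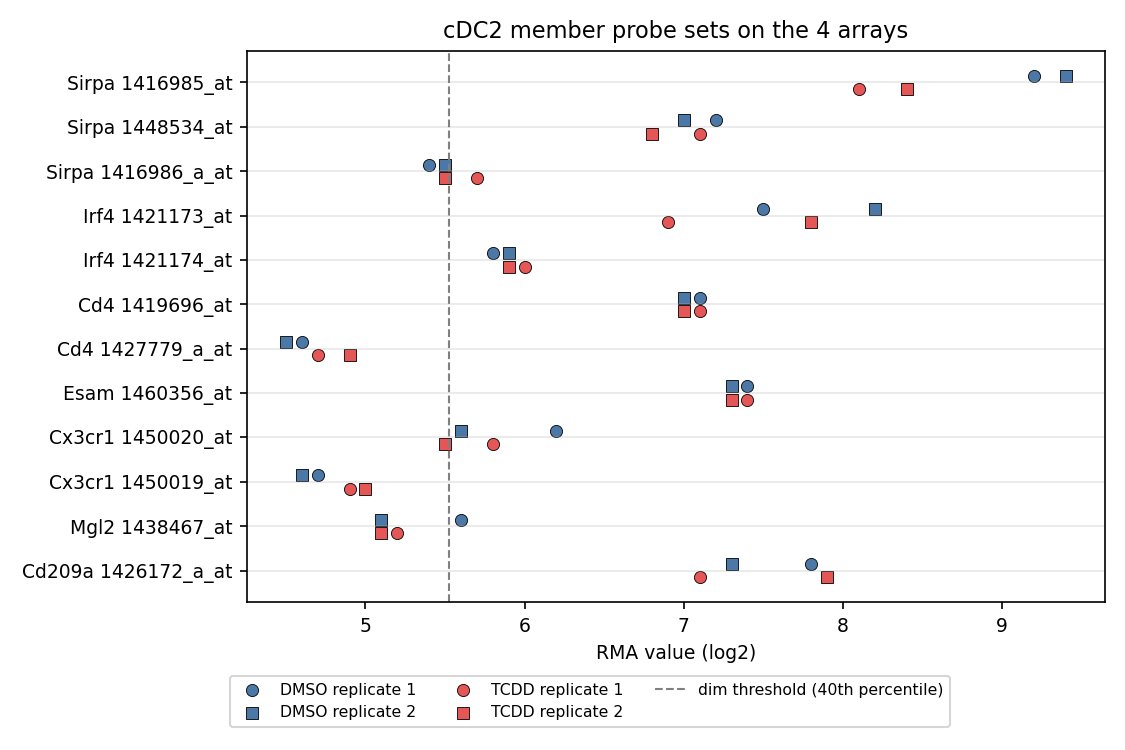
RMA values (log2, horizontal axis) of the 12 probe sets of cDC2 genes on the 2 DMSO arrays (blue) and the 2 TCDD arrays (red), with circles for replicate 1 and squares for replicate 2; the dashed line is the dim threshold of 5.525. The widest gap between the groups is in the top row, where Sirpa read 9.2 and 9.4 on the DMSO arrays against 8.1 and 8.4 on the TCDD arrays.

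Sirpa encodes SIRPα, which binds CD47 on other cells and recruits phosphatases through its cytoplasmic tail. Its brightest probe set, 1416985_at, read 9.2 and 9.4 on the DMSO arrays against 8.1 and 8.4 on the TCDD arrays. Both TCDD arrays were low and the groups did not overlap. The difference was -1.05 (SE 0.159, n = 2 per group; 95% interval -1.55 to -0.55), or 2.07-fold lower, and did not pass the test (limma adjusted p = 0.349). With the other prior the adjusted p was 0.285. The difference was -0.90 without TCDD replicate 1 and -1.20 without TCDD replicate 2. A lower value without overlap by at least 1 on the log2 scale was held by 2.35% of all probe sets. Which cells of the preparation gave the Sirpa signal, cDC2 or others such as macrophages, was not tested.

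The other 2 Sirpa probe sets did not share this difference. Probe set 1448534_at read 7.2 and 7.0 on the DMSO arrays against 7.1 and 6.8 on the TCDD arrays, so the groups overlapped, with a difference of -0.15 (SE 0.159; interval -0.65 to 0.35). Probe set 1416986_a_at, which sits at the dim threshold, read 5.4 and 5.5 on the DMSO arrays against 5.7 and 5.5 on the TCDD arrays, a difference of 0.15 (SE 0.11). All 3 are annotated to the same transcript record, so the lower Sirpa value rests on 1 probe set of 3. Which part of the transcript each one covers was not used here.

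Part of the Sirpa difference was shared with other probe sets of the same brightness. The median difference was -0.40 among the 1142 probe sets whose DMSO mean was within 0.5 of that of Sirpa 1416985_at, and 10.5% of them had a difference as low or lower. After a further quantile normalization the Sirpa difference was -0.70, and after cyclic loess it was -0.75. Both keep the direction and reduce the size.

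Genes whose products bind SIRPα lay in both directions, and none passed the test. Cd47, the SIRPα ligand, had 3 bright probe sets with differences of -1.20, -0.90 and -0.85, each with both TCDD arrays below both DMSO arrays, as in 24.1% of all probe sets above the dim threshold. Without TCDD replicate 1 they were -0.85, -0.45 and -0.50, and without DMSO replicate 2 -0.85, -0.85 and -0.45. On 1419554_at, the Cd47 probe set with the greatest difference, the values were 9.9 and 10.6 in DMSO and 8.7 and 9.4 in TCDD (SE 0.407, limma adjusted p = 0.401). Under quantile normalization the 3 differences were -0.81, -0.53 and -0.56, and the groups then overlapped in all 3. The remaining Cd47 probe set, 1459908_at, was dim and overlapped, with 5.3 and 4.8 in DMSO against 5.2 and 4.9 in TCDD. Ptpn11 (SHP-2), a phosphatase recruited by SIRPα, read 9.4 and 9.1 on the DMSO arrays against 8.8 and 8.7 on the TCDD arrays on its brightest probe set, a difference of -0.50 (SE 0.143) that was -0.14 with overlap under quantile normalization, and its 2 dim probe sets stood at -0.10 and 0.30. Ptpn6 (SHP-1), the other such phosphatase, stood at -0.10 on its brightest probe set. Its second probe set lay at 9.5 and 9.4 in DMSO, 7.1 in TCDD replicate 1 and 9.3 in TCDD replicate 2. That difference was -1.25, and -0.15 without TCDD replicate 1, so it came mostly from that array. Sftpd, the gene of a soluble lectin that binds SIRPα, lay higher without overlap at 0.50 (SE 0.143) on a dim probe set, as did 23.9% of all dim probe sets.

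**Figure D2:**
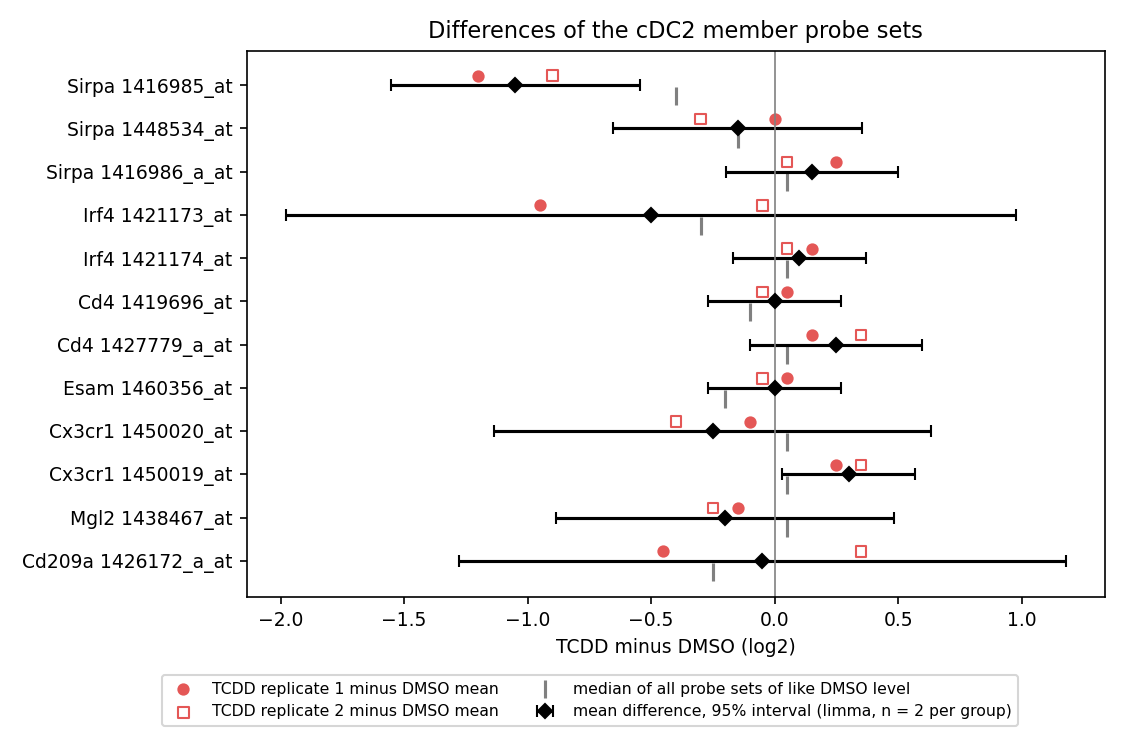
TCDD minus DMSO (log2, horizontal axis) for each cDC2 probe set: black diamonds are mean differences with limma's 95% interval (n = 2 arrays per group), red circles and open squares are TCDD replicates 1 and 2 minus the DMSO mean, and grey ticks are the median of all probe sets of like DMSO level. The intervals of Sirpa 1416985_at (-1.55 to -0.55) and Cx3cr1 1450019_at (0.03 to 0.57) do not hold 0, before adjustment for the number of probe sets; with the other prior that of Cx3cr1 1450019_at does.

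Irf4 encodes the interferon regulatory factor that cDC2 require for their development and migration. Its brighter probe set, 1421173_at, read 7.5 and 8.2 on the DMSO arrays against 6.9 and 7.8 on the TCDD arrays. The groups overlapped, since TCDD replicate 2 was above DMSO replicate 1. The difference was -0.50 (SE 0.467, n = 2 per group; interval -1.98 to 0.98; limma adjusted p = 0.65). It rested on TCDD replicate 1 and DMSO replicate 2: the difference was -0.05 without the former, -0.15 without the latter, -0.95 without TCDD replicate 2 and -0.85 without DMSO replicate 1. The dimmer probe set, 1421174_at, read 5.8 and 5.9 on the DMSO arrays against 6.0 and 5.9 on the TCDD arrays, a difference of 0.10 (SE 0.0848; interval -0.17 to 0.37). The interval of the brighter probe set is wide enough to hold a change of more than 2-fold in the lower direction.

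IRF4 binds DNA weakly alone and pairs with PU.1 or with BATF factors. Spi1, which encodes PU.1, read 8.3 and 7.1 on the DMSO arrays against 7.5 and 8.4 on the TCDD arrays, a difference of 0.25 (SE 0.613) with the groups overlapping. Batf stood at 0.00 (SE 0.192) and Batf3, a cDC1 factor, at -0.60 (SE 0.35), both with overlap. Batf3 read 9.1 and 8.5 on the DMSO arrays against 7.9 and 8.5 on TCDD replicates 1 and 2.

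Of the 9 genes 5 had a promoter in the RefSeq table (build GRCm38.p6; 250 bases before the transcription start and 50 after): Irf4, Cx3cr1, Mgl2, Cd209a and Clec12a. Each was searched on both strands for the AhR core GCGTG and for the composite IRF4 and PU.1 element (GGAA, then any 2 bases, then GAAA). The core was in 2 of the 5, Irf4 and Cx3cr1, and in 32.4% of all promoters in the table. The composite element was in 1 of the 5, Cd209a, and in 2.72% of all. The windows with these matches are shown 5′ to 3′ because they set the 3 measured genes beside the treated pathway and beside IRF4 itself; capitals mark the match. The Irf4 stretch is chr13:30749093-30749212, plus strand, with the match as CACGC starting 80 bases before the start:
Irf4: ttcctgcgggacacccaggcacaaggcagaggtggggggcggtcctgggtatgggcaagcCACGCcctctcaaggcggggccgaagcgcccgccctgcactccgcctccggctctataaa
The Cx3cr1 stretch is chr9:120068247-120068273, minus strand, with the match at base 34 of the transcribed part:
Cx3cr1: ggtggagtctGCGTGagactgggtgag
The Cd209a stretch is chr8:3748974-3749003, minus strand, with the match on the opposite strand starting 9 bases before the start:
Cd209a: cacttctcaaTTTCTCTTCCtaagtaagat
A match of these letters describes the sequence only. No probe set of the array passed the test, so the test does not set the 2 genes with the AhR core apart. Their brighter probe sets stood at -0.50 for Irf4 and -0.25 for Cx3cr1. The dimmer ones stood at 0.10 and 0.30.

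Cd4 and Esam encode surface molecules of the Notch2-dependent splenic cDC2. Cd4, the co-receptor that binds MHC class II, read 7.1 and 7.0 on the DMSO arrays against 7.1 and 7.0 on the TCDD arrays on 1419696_at. Esam, an adhesion molecule of the immunoglobulin superfamily, read 7.4 and 7.3 on the DMSO arrays against 7.4 and 7.3 on the TCDD arrays on 1460356_at. In both the difference was 0.00 (SE 0.0848, n = 2 per group), with a 95% interval of -0.27 to 0.27, or 0.83-fold to 1.20-fold. With the other prior the interval was wider, -0.43 to 0.43. Both stand slightly above the median of all probe sets of like level, which was -0.10 around Cd4 and -0.20 around Esam, and under quantile normalization they stood at 0.15 and 0.23. The second Cd4 probe set, 1427779_a_at, was dim, with 4.6 and 4.5 on the DMSO arrays against 4.7 and 4.9 on the TCDD arrays, a difference of 0.25 (SE 0.11).

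CD4 also marks helper T cells, so T cell genes were read beside it. Of 13 measured T cell markers 6 were above the dim threshold, and 0 were called. The log2 of their mean signal was 6.17 and 6.21 in DMSO, 6.55 in TCDD replicate 1 and 5.98 in TCDD replicate 2. Cd3e read 7.1 and 7.1 on the DMSO arrays against 7.1 and 6.9 on the TCDD arrays. Cd3d read 5.6 and 5.5 on the DMSO arrays against 6.1 and 5.2 on the TCDD arrays, while Cd3g at 4.4 to 4.8, Cd8b1 at 4.5 to 4.9 and Bcl11b at 4.5 to 4.8 were dim. Of the 13, 1 lay lower without overlap and 2 higher, beside 19.4% lower and 20.0% higher over all genes. The lower was Cd5, above the dim threshold, at -0.50, and the higher were Cd3g and Bcl11b, at 0.25 each. Il7r read 7.5 and 7.7 in DMSO against 8.6 and 7.1 in TCDD replicates 1 and 2. The share of the Cd4 signal that came from T cells was not tested.

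Cx3cr1 encodes the receptor of the chemokine fractalkine and marks the monocyte-like cDC2 fraction, monocytes and some macrophages. Its brighter probe set, 1450020_at, read 6.2 and 5.6 on the DMSO arrays against 5.8 and 5.5 on the TCDD arrays. The groups overlapped because the DMSO arrays differed by 0.6 from each other, and the difference of -0.25 (SE 0.28; interval -1.13 to 0.63) was within that gap. It was 0.05 without DMSO replicate 1 and -0.55 without DMSO replicate 2. The dimmer probe set, 1450019_at, read 4.7 and 4.6 on the DMSO arrays against 4.9 and 5.0 on the TCDD arrays, a difference of 0.30 (SE 0.0848; interval 0.03 to 0.57; limma adjusted p = 0.379). With the other prior its interval was -0.13 to 0.73 and held 0. The 2 probe sets of the gene therefore point in opposite directions. Cx3cl1, the fractalkine gene, lay at 6.7 and 6.6 in both groups on its brightest probe set, and its other 2 stood at 0.25 and 0.00.

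The 2 member probe sets that lay higher in TCDD without overlap, Cd4 1427779_a_at and Cx3cr1 1450019_at, were both dim. Among all dim probe sets 23.9% lay higher without overlap and 9.71% lower, while above the threshold 15.8% lay higher and 24.1% lower. Under removal of dim probe sets 0 of the 9 member probe sets that passed lay higher.

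**Figure D3:**
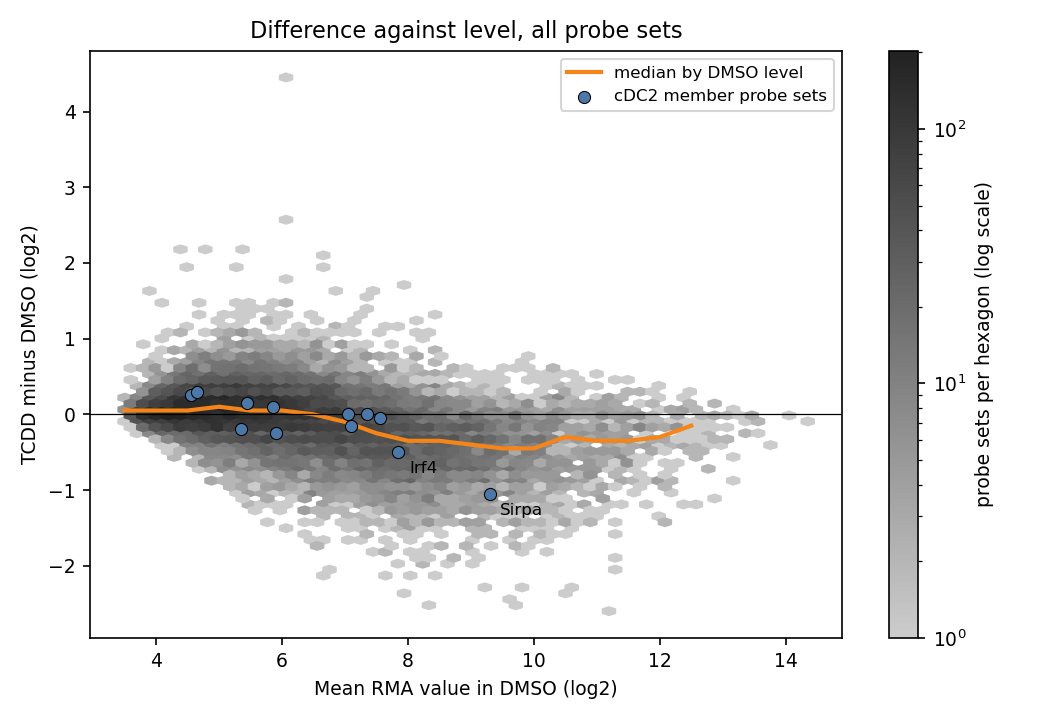
TCDD minus DMSO (log2, vertical axis) against the mean DMSO value (log2, horizontal axis) for all 22626 probe sets as shaded hexagons, with the median by DMSO level in orange and the 12 cDC2 probe sets as blue points. The orange line lies near 0.05 for dim probe sets and falls to about -0.4 for bright ones; Sirpa 1416985_at, at -1.05, is the member farthest below it.

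The lectin genes gave no consistent difference. Mgl2 encodes CD301b, a lectin for galactose-type sugars, and its probe set 1438467_at was dim. It read 5.6 and 5.1 on the DMSO arrays against 5.2 and 5.1 on the TCDD arrays, a difference of -0.20 (SE 0.216; interval -0.88 to 0.48) that came from DMSO replicate 1 and was 0.05 without that array. Its close relative Clec10a (CD301a) read 6.7 and 5.8 on the DMSO arrays against 6.2 and 5.9 on the TCDD arrays, again with DMSO replicate 1 as the high array. Cd209a, a mouse relative of DC-SIGN, read 7.8 and 7.3 on the DMSO arrays against 7.1 and 7.9 on the TCDD arrays on 1426172_a_at. The 2 TCDD arrays lay on opposite sides of both DMSO arrays, the difference was -0.05 (SE 0.388; interval -1.28 to 1.18), and it was 0.35 without TCDD replicate 1 and -0.45 without TCDD replicate 2. Its relatives Cd209d and Cd209e stood at -0.30 (SE 0.192) and 0.10 (SE 0.102). Clec4a2, a relative in sequence of the unmeasured Clec4a4, read 8.9 and 9.2 on the DMSO arrays against 9.1 and 8.6 on the TCDD arrays on the brighter of its 2 probe sets (difference -0.20, SE 0.245).

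Other genes of cDC2 and CD11b+ DC gave a mixed picture. Of 18 measured, on the brightest probe set of each gene, 0 were called, 6 lay lower without overlap and 0 higher, beside 19.4% lower and 20.0% higher over all genes. Their median difference was -0.23, and -0.10 without DMSO replicate 1, -0.075 without TCDD replicate 2 and -0.35 without TCDD replicate 1. S100a4, a calcium-binding protein of myeloid cells, lay lowest, with 10.7 and 11.1 on the DMSO arrays against 10.0 and 9.8 on the TCDD arrays, a difference of -1.0 (SE 0.192, limma adjusted p = 0.349). The highest was Ltbr, the lymphotoxin β receptor gene needed to maintain splenic cDC2, at 0.25 (SE 0.228). Under quantile normalization 4 of the 18 lay lower and 1 higher, with a median of -0.12. Of all 12393 genes 1860 then lay lower and 2962 higher. Of 12 measured genes listed as partners of the members, 4 lay lower without overlap and 1 higher. Their median of -0.10 turned to 0.13 under quantile normalization and 0.08 under cyclic loess. The list also holds Tyrobp (-0.45, lower without overlap) and Icosl (-0.10, overlapping), for which binding to a member was not established here. Tied for the lowest place with Cd47 was Il16, which encodes a cytokine that binds CD4. It read 8.4 and 8.3 on the DMSO arrays against 7.5 and 7.5 on the TCDD arrays (difference -0.85, SE 0.0744). Its other probe set overlapped at -0.35, and stood at -1.05 without TCDD replicate 1 and 0.35 without TCDD replicate 2. The highest was Sftpd, at 0.50.

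On the deposited scale the cDC2 genes stood closer to 0 than the cDC1 markers, which was not so under quantile normalization or cyclic loess. On the brightest probe set of each gene 1 of 7 cDC2 members lay lower without overlap and 6 overlapped, with a median of -0.20. Of 12 measured cDC1 markers 6 lay lower and 0 higher, with a median of -0.53. The 2 lists differ in brightness: the cDC1 genes had a median DMSO level of 8.75 and the cDC2 genes 7.35, and probe sets of like level had median differences of -0.40 and -0.20. Under quantile normalization the medians were -0.22 for cDC1 and -0.25 for cDC2. Under cyclic loess they were -0.27 for each list. Without TCDD replicate 1 they were -0.48 for cDC1 and -0.05 for cDC2, and without DMSO replicate 1 the cDC2 median turned to 0.05 while that of cDC1 was -0.43. Without DMSO replicate 2 the medians were -0.575 for cDC1 and -0.30 for cDC2, and without TCDD replicate 2 -0.50 and -0.15. Under median centring they were -0.575 and -0.25. The difference between the lists was not tested. Plasmacytoid DC markers had a median of 0.00, and macrophage and monocyte markers, which share Cx3cr1 with the monocyte-like cDC2, one of -0.58 with 8 of 18 lower and 1 higher, beside 19.4% lower and 20.0% higher over all genes. Under quantile normalization the macrophage and monocyte median was -0.36 with 4 lower and 0 higher, beside 1860 lower and 2962 higher of all 12393 genes. Without DMSO replicate 1 that median was -0.38.

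**Figure D4:**
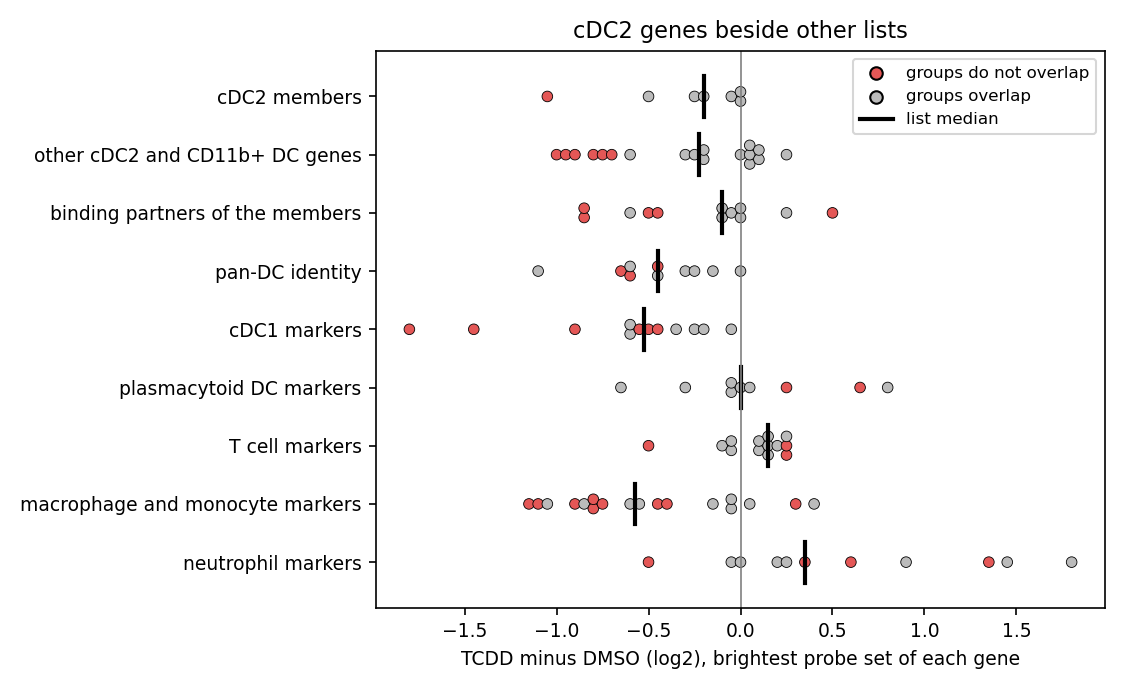
TCDD minus DMSO (log2, horizontal axis) on the brightest probe set of each gene, 1 point per gene, for the cDC2 genes and 8 other lists; red points are genes whose groups do not overlap, grey points overlap, and black bars are list medians. The cDC2 genes have a median of -0.20 with Sirpa alone at the left, and the cDC1 markers one of -0.53.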

How the data were processed

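Expression was measured on 4 Affymetrix arrays, 1 per sample. The deposited values are log2 RMA values, per the submitters' processing notes. The sources used here do not name the software. RNA was amplified before labelling, per the labels' protocols. All values lie on steps of 0.1, so rounding can move a group difference by up to 0.1. Tests leave out 64 control probe sets. Of the 22626 others 20380 have 1 gene symbol, 691 several and 1555 none by the platform's annotation, with symbols updated through gene identifiers. TCDD was compared with DMSO by limma 3.58.1 in R 4.3.3 (lmFit, eBayes, two-sided, Benjamini-Hochberg over all probe sets); intervals are 95% moderated ones. On simulated data the fit recovered the known changes. On data simulated likewise and rounded to steps of 0.1 it missed many or all of them, by the size of the change. With the variance prior taken only from probe sets with some spread within groups it recovered them there too, so that fit was added. On the real arrays its prior degrees of freedom were 4.37 in place of 1.03. All simulated probe sets had the same spread, unlike those of the arrays. The simulation therefore cannot show how far rounding weakens the test here. An exact permutation test of 2 arrays against 2 cannot go below p = 0.33, so none was run. Arrays give no counts, so their number limits the precision.

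The genes and lists were chosen with earlier results of these data known. All member probe sets are named. Genes of other lists are named where they check the tissue, bear on what a member marks, bind a member or are relatives in sequence. The highest and lowest are named for the other cDC2 genes and the genes listed as partners of the members, but not for every list. Lyz2, Cd14, Csf2rb and Cd300a, in the last section, fall outside this rule. So do S100a9, Ngp, Csf3r, Elane, Mmp9, Camp, Tyrobp and Icosl. Siglech, Ly6c2, Lck, Clec4a1 and Clec4a3 had no probe set with 1 symbol. NK and B cell markers stood at medians of -0.10 each, neutrophil markers at 0.35 and DC markers in general at -0.45. Without TCDD replicate 1 these were -0.30 for NK, -0.25 for B cell, 0.00 for neutrophil and -0.23 for DC markers. Csf1r stood at -0.15 on its brightest probe set, with 12.1 and 12.1 in DMSO against 12.5 and 11.4 in TCDD replicates 1 and 2. Zbtb46 stood at -0.65 on its brightest. Alternatives were other scalings, a dim filter, other priors, the replicate block, 1 value per gene, another threshold and each array left out. The median over probe sets of like level was added after the data were seen.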

Additional observations from a re-analysis of the deposited data

How the results depend on the processing

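Limma called 0 member probe sets and 0 of all probe sets with the replicate block, the crossed pairing (chosen after seeing the data), every scaling, the dim filter, both other priors, the prior without zero-spread probe sets (chosen after seeing the data), an adjusted p under 0.10 and each array left out. Replicate 1 minus 2 correlated at -0.189 between the groups, so the replicate numbers were not taken as pairs. With the replicate block 2 member probe sets had an unadjusted p under 0.05, as without it, and with the crossed pairing 1. Of the 12 member probe sets, the number lower without overlap went from 1 (18.4% of all probe sets) to 2 under cyclic loess (22.6%). It went to 0 with the median of the probe sets of each gene. With any 1 array removed it lay between 2 and 4, beside 23.7% to 45.3% of all probe sets. Removing an array itself makes separation likelier. The number higher went from 2 (19.0% of all probe sets) to 4 under quantile normalization (21.1%) and 4 under cyclic loess (22.4%). It went to 1 under median centring (13.2%) and to 0 without dim probe sets (15.9%). With any 1 array removed it lay between 2 and 4, beside 24.8% to 40.8% of all probe sets. The median difference of the members was -0.20 on 1 probe set per gene. Of 117 single values under an alternative whose first value was not 0, 109 kept their direction and 2 went to 0. Cd4 1419696_at and Esam, at 0 in the deposited values, ranged from -0.05 to 0.23. The 6 that turned were small: Cd209a at 0.18 under quantile normalization and 0.12 under cyclic loess, and at 0.20 and 0.35 without DMSO replicate 1 and TCDD replicate 1, and Cx3cr1 1450020_at and Mgl2 at 0.05 each without DMSO replicate 1. With 1 array left out they ranged from -0.45 to 0.35 for Cd209a, from -0.55 to 0.05 for Cx3cr1 and from -0.45 to 0.05 for Mgl2. The cause of these shifts was not tested. The brightest Sirpa probe set ranged from -1.20 to -0.70, with limma adjusted p from 0.285 to 0.612 on all 4 arrays. With 1 array left out the adjusted p was 0.189 to 0.612, but the lone array of a group is then assumed to vary like the other group.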

Other observations

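Some genes differed between the DMSO arrays by more than between the groups, and those named here were chosen after their values were seen. Cx3cr1 1450020_at lay at 6.2 against 5.6, Mgl2 at 5.6 against 5.1, Cd209a at 7.8 against 7.3 and Clec10a at 6.7 against 5.8 in replicates 1 and 2. The monocyte genes Lyz2, at 10.5 against 9.0, and Cd14, at 8.4 against 7.0, went the same way. Sirpa 1416985_at, at 9.2 against 9.4, and the brighter Irf4 probe set, at 7.5 against 8.2, went the other way, as did Cd209d, at 5.7 against 5.9, and Cd4 and Esam differed by 0.1. Over the whole macrophage and monocyte list 9 genes were higher and 8 lower in DMSO replicate 1, with a median gap of 0.05.

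Csf2rb, the shared receptor chain for GM-CSF and related cytokines that act on DC, was singled out after its values were seen. It read 6.5 and 6.4 on the DMSO arrays against 5.7 and 5.8 on the TCDD arrays, a difference of -0.70 (SE 0.0848, limma adjusted p = 0.349) that was also -0.70 under quantile normalization and -0.74 under cyclic loess. Cd300a, an inhibitory receptor of myeloid cells, read 9.8 and 9.7 on the DMSO arrays against 8.8 and 9.1 on the TCDD arrays, with a difference of -0.80 that was -0.40 under quantile normalization.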
